A study of Mus musculus with 42 samples.

Results

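Spleens taken 14 days after CpG were compared with spleens taken 7 days after CpG, gene by gene, on 8 of the 42 spleen arrays of the series. The comparison takes the arrays whose titles name CpG ODN with 14 days (4 arrays) or 7 days (4 arrays). All 8 spleens came from female BALB/c mice given 400 µg of CpG oligodeoxynucleotides (ODN) into the peritoneal cavity, as an equimolar mixture of ODN 1555 and 1466, so the groups differ in the time since injection alone as far as the labels say. The labels give neither a genetic modification nor an age for either group. The series also holds 6 arrays of untreated BALB/c spleens, which are used below as values beside the comparison, arrays of other times after CpG, and 4 arrays of spleens taken 3 h after a control ODN mixture. The design text calls the samples of a time point independent replicates of the biology. Spleen cDNA was hybridised together with cDNA of a common mouse reference, so a level below is a log2 ratio of spleen over reference, and a difference is a log2 difference, 14 days minus 7 days, followed by its standard error. Features with a single gene symbol gave 15277 genes, and 14965 of them had a value on at least 3 arrays of both groups and were tested.

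CpG ODN are short DNA molecules that engage TLR9, an endosomal receptor of B cells, dendritic cells and macrophages. In the mouse the spleen is a blood-forming organ besides a lymphoid one: its red pulp holds erythroblasts, megakaryocytes and granulocyte precursors, which multiply in infection and after strong innate stimulation. Developing neutrophils make the proteins of their primary granules while they still divide, as promyelocytes, and those of the secondary and tertiary granules later, after division has ended. Erythroblasts in turn take up iron and make haem as they mature and finish as reticulocytes rich in globin mRNA. In whole spleen RNA, fewer cells of a type and less RNA per cell cannot be told apart, and this holds for every result below.

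The database numbers in the titles place the 7-day and 14-day arrays next to each other, together with those of 72 h and of control ODN. Within that stretch the numbers run group by group, so the order of the arrays and the time after CpG cannot be told apart. Over the 12588 genes measured on every array, 14-day arrays correlated with each other at 0.933 to 0.956, 7-day arrays at 0.941 to 0.963, and arrays of different groups at 0.821 to 0.920. Most spleen markers checked were far above the reference in both groups (log2 ratio, SD, n = 4 each). The B cell antigen receptor component Cd79a averaged 5.43 ± 0.57 at 14 days and 4.84 ± 0.21 at 7 days. The globin gene Hbb-b1 averaged 7.43 ± 0.75 at 14 days and 7.09 ± 0.45 at 7 days. For the MHC class II gene H2-Aa the means were 7.20 ± 0.37 at 14 days and 6.43 ± 0.36 at 7 days. The T cell gene Cd3e was not far above it, with 0.99 ± 0.37 at 14 days and 0.07 ± 0.08 at 7 days. Arrays stood apart in both groups. Of the 14-day arrays, replicates 2 and 4 lacked a value for 746 and 683 of the 30601 features, against 226 and 299 on the other 14-day arrays and 197 to 281 on the 7-day arrays. Of the 7-day arrays, replicates 2 and 3 had a mean log2 ratio of 4.57 and 4.74 over genes of the acinar pancreas, which borders the spleen, against 0.12 and 1.78 on the other 7-day arrays and 0.27 to 1.17 at 14 days. None of the 19 acinar genes tested passed the limma test (0 at unadjusted p below 0.05), with a median difference of -2.29. The count of all called genes and those of some lists are also given without these arrays. Counts without both acinar-rich 7-day arrays are not given for the replication, histone, late-granule, B cell and T cell lists.

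Between 14 and 7 days 3221 of the 14965 genes tested passed an adjusted p below 0.05, which is 21.5% of them. Of these, 1611 (10.8%) were higher and 1610 (10.8%) lower at 14 days, and the median difference over all genes tested was 0.03. At unadjusted p below 0.05 there were 5083 genes. Changes of at least 1 on the log2 scale were less even, with 165 genes higher and 348 lower at 14 days. Without 14-day replicate 2 the test called 1873 genes. Without both 7-day arrays rich in acinar transcripts it called 1916, and without both 14-day arrays with many missing values 457. The groups did not overlap for 3831 of the 14416 genes with all 8 values (26.6%), 1943 of them with every 14-day array higher (13.5%) and 1888 with every 14-day array lower (13.1%).

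The share of called members differed widely between 34 gene lists (the plot of members called in each list). Genes of mitosis, DNA replication, histones and haem synthesis were mostly lower at 14 days. Genes of the later neutrophil granules and of mature B and T cells were in large part higher.

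**Figure D1:**
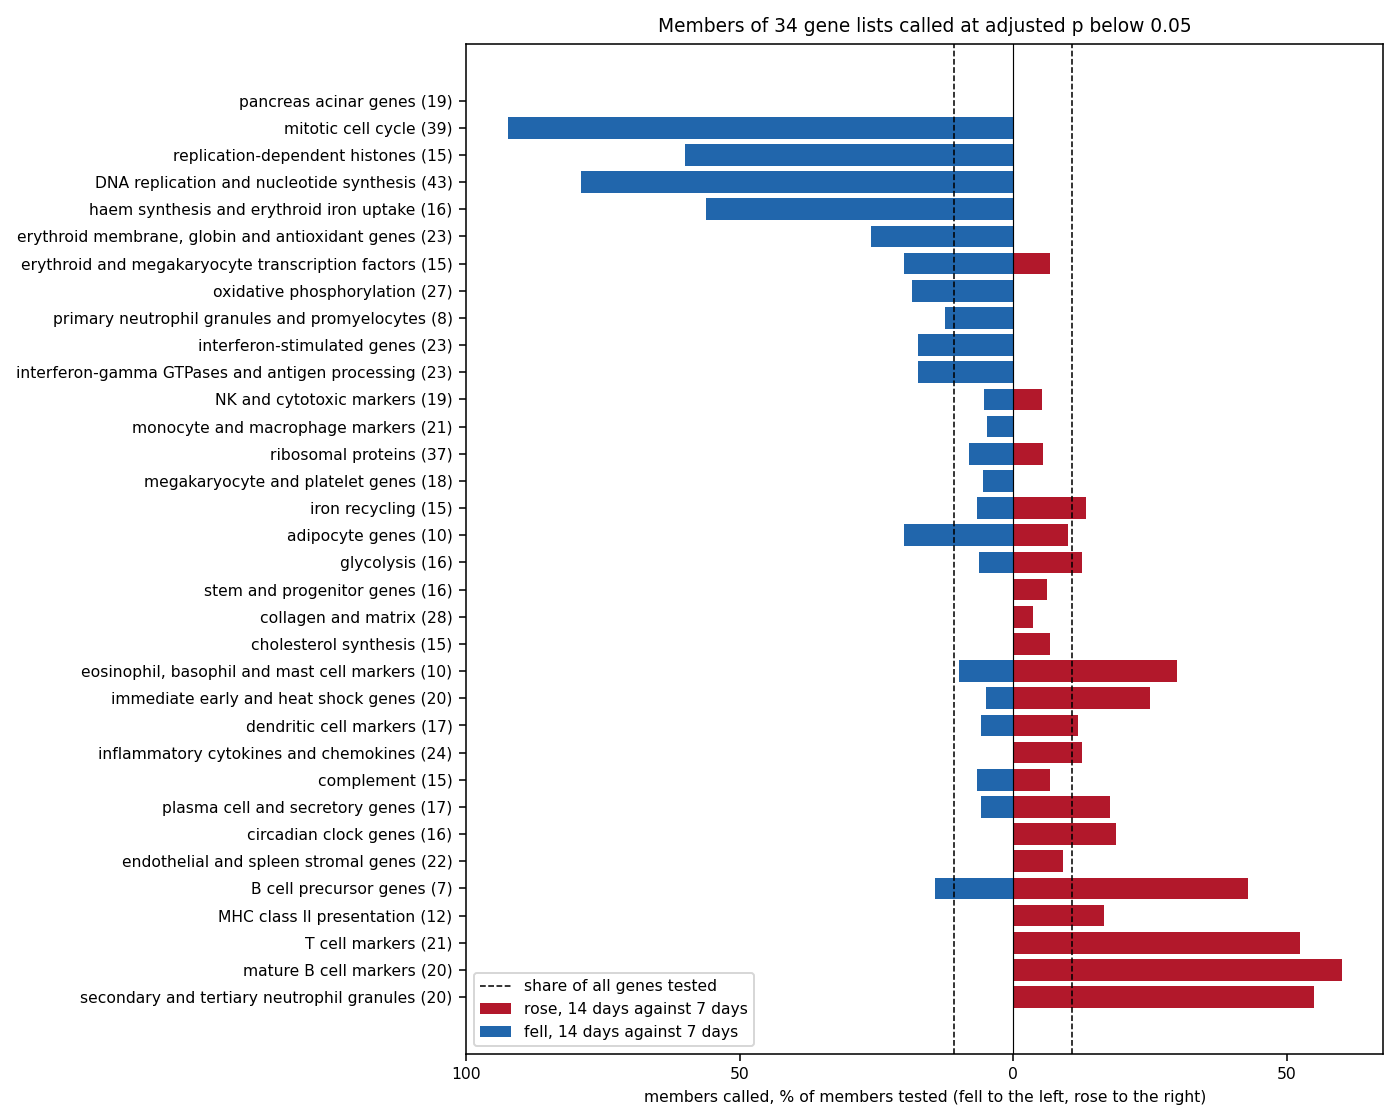
Share of the tested members of 34 gene lists (number tested in brackets) that passed an adjusted p below 0.05, 14 days against 7 days, with members that rose to the right and members that fell to the left. The dashed lines mark 10.8%, the share of all tested genes called in each direction; the mitotic list reaches 36 of 39 members on the left and the mature B cell list 12 of 20 on the right.

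Genes of mitosis were lower at 14 days almost throughout. Of 39 mitotic genes tested, 36 fell (all genes lower: 10.8%), none rose, and the median difference was -1.15, against 0.03 over all genes. The list mean was -0.19, -1.01, -0.25 and -0.63 on the 14-day arrays, against 0.60, 0.75, 0.76 and 0.70 on the 7-day arrays. Every 14-day array lay below every 7-day array, the 7-day arrays lay close together, and the 14-day arrays with many missing values were the lowest.

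Mki67, whose product coats mitotic chromosomes and is the usual stain for dividing cells, had log2 ratios of 1.92, 0.26, 1.58 and 0.63 at 14 days, against 3.07, 3.31, 3.28 and 3.56 at 7 days. The 14-day levels were all lower, and they were more spread than the 7-day ones. Mki67 thus fell by 2.21 ± 0.45 (4.62-fold, adjusted p = 0.00063). Hmmr, a spindle and hyaluronan-binding protein, had 0.10, -1.80, -0.32 and -0.80 at 14 days, against 1.33, 1.20, 1.32 and 1.54 at 7 days, a fall of 2.05 ± 0.35 (adjusted p = 0.000114). Top2a, the topoisomerase that untangles sister chromatids, had 0.01, -1.17, 0.07 and -0.73 at 14 days, against 1.00, 1.20, 1.50 and 1.20 at 7 days, and fell by 1.68 ± 0.31 (adjusted p = 0.000244). For both genes the groups were again separate, with replicate 2 the lowest of the 14-day arrays.

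Genes that act at several stages of mitosis fell. Nuf2 (-1.94) and Ndc80 (-1.60), partners in the complex that ties kinetochores to microtubules, fell, as did the checkpoint kinases Bub1 (-1.69), Ttk (-1.52) and Bub1b (-1.15). Cyclin B2 (Ccnb2, -1.88), cyclin A2 (Ccna2, -1.29) and their kinase Cdk1 (-1.14) fell with them, and so did the mitotic kinases Aurka (-1.35) and Plk1 (-0.72). Of the chromosomal passenger complex, Cdca8 (-1.59), Birc5 (-1.47) and Incenp (-0.97) passed the test, while its kinase Aurkb (-0.20) did not. The kinesin gene Kif2c (-0.18) and the separase gene Espl1 (0.19) were the other members that did not pass. Outside the list, Kif18a, a kinesin that aligns chromosomes (-1.84 ± 0.33), Sgo1, which guards centromeric cohesion (-1.72 ± 0.28), and Esco2, which acetylates cohesin (-1.90 ± 0.32), were among the 15 genes that fell most, with Depdc1a, a spindle-associated gene (-1.74 ± 0.37).

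The mean of the mitotic list was highest at 7 days among the groups of the series, and at 14 days it was near that of untreated spleen (the plots of list means over the time course). Against untreated spleens 681 genes (4.54%) passed the test at 14 days and 2366 (15.6%) at 7 days. At 14 days 1 of the 39 mitotic genes fell against untreated (1.77% of all genes tested), none rose, and the median was -0.08. At 7 days 37 of the 39 rose against untreated (8.68% of all genes tested), with a median of 1.25, and none fell. These comparisons share the 7-day or the 14-day arrays with the main one, so they are not separate evidence, and the untreated arrays carry other database numbers. The count of 36 became 33 without 14-day replicate 2, 34 without both acinar-rich 7-day arrays, and 13 without both 14-day arrays with many missing values.

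**Figure D2:**
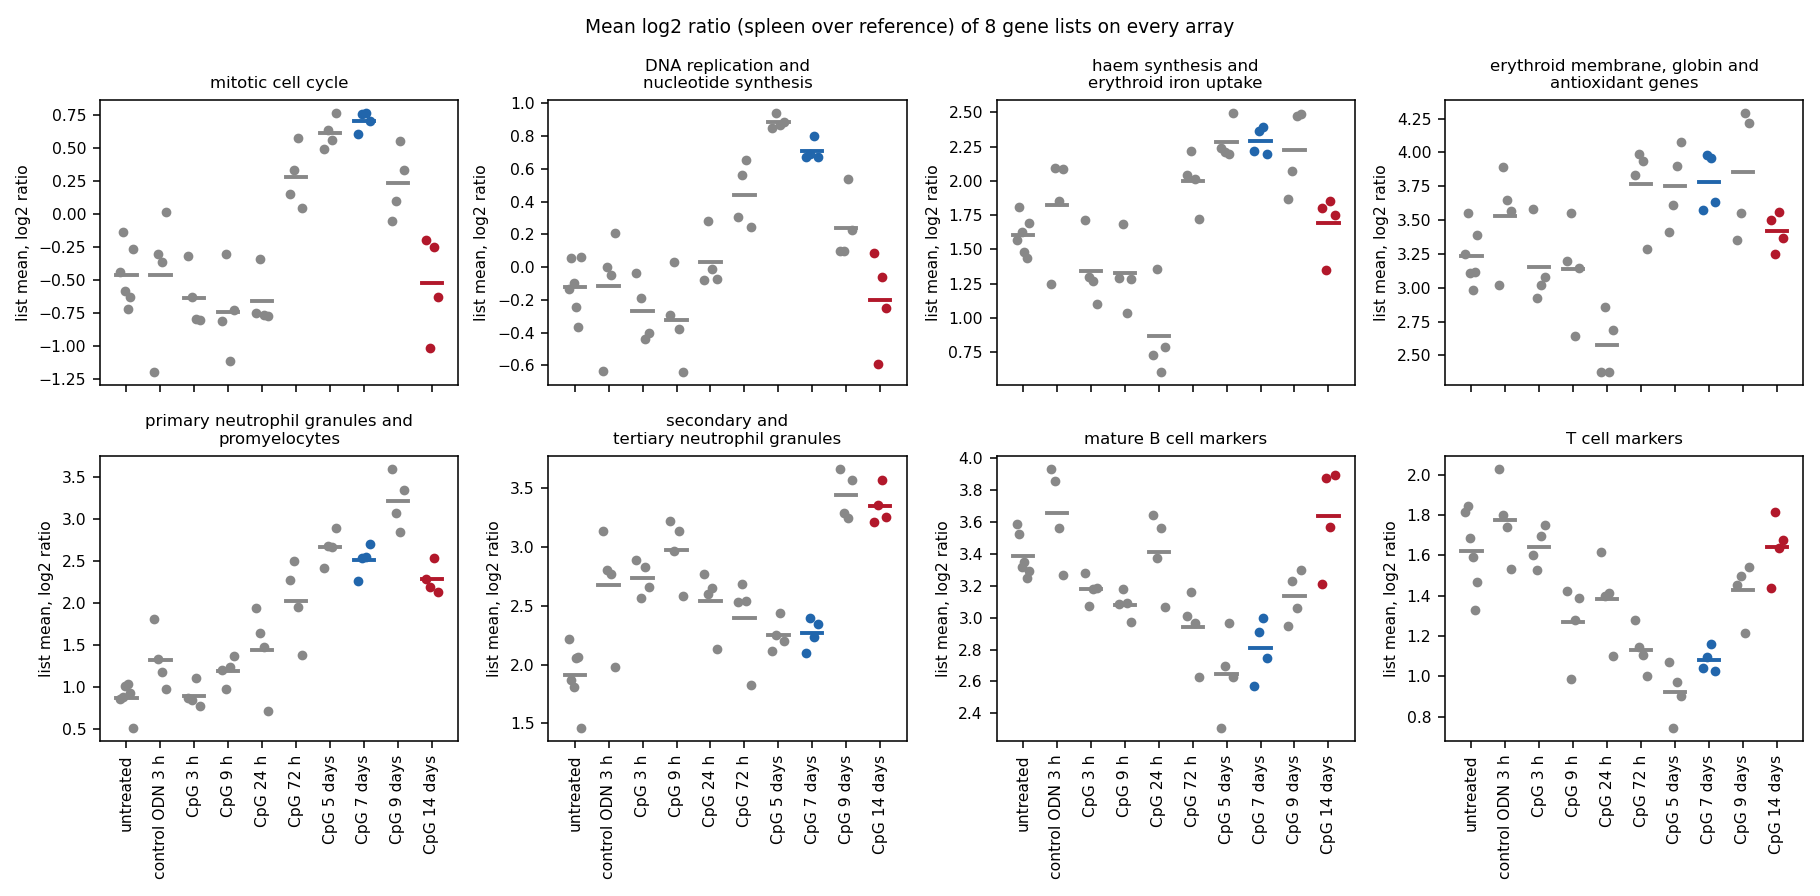
Mean log2 ratio, spleen over reference, of 8 gene lists on every array (points) in untreated spleens, 3 h after control ODN and at each time after CpG, with a bar at the group mean; 7 days is blue and 14 days red. The mitotic and DNA replication lists stand at -0.52 and -0.20 at 14 days and both at 0.71 at 7 days, while the secondary and tertiary granule list stands at 3.35 at 14 days and 2.27 at 7 days.

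Promoters of these genes often carry the CCAAT box, bound by NF-Y, and the cell cycle homology region (CHR), bound by the MuvB-containing complexes that hold mitotic genes silent in resting cells; promoters of replication genes often carry sites of E2F factors. The 5 windows below are shown because they belong to members described here and hold these motifs. They run from 150 bases before the transcription start to the base before it, on the gene's strand, from RefSeq on GRCm38.p6. Capitals mark CHR (TTTGAA or TTCAAA) and CCAAT (or ATTGG) in Mki67, Hmmr and Top2a, the E2F motif TTNNCGC (or GCGNNAA) in Mcm6, a subunit of the replicative helicase, and the C/EBP motif TTNNGNAA (or TTNCNNAA) in Ltf, the lactoferrin gene described further down. The windows lie at chr7:135716380-135716529 (minus strand, Mki67), chr11:40733438-40733587 (minus strand, Hmmr), chr11:99024190-99024339 (minus strand, Top2a), chr1:128359706-128359855 (minus strand, Mcm6) and chr9:111019142-111019291 (plus strand, Ltf).
Mki67: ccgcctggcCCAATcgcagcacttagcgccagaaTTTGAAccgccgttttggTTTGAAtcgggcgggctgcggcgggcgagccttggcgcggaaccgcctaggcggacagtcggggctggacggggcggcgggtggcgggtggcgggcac
Hmmr: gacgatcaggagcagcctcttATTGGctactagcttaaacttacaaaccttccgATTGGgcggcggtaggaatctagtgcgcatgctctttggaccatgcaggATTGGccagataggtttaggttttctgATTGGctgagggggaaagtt
Top2a: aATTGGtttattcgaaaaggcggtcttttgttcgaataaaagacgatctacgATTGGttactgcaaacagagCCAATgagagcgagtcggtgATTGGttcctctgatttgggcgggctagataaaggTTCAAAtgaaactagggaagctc
Mcm6: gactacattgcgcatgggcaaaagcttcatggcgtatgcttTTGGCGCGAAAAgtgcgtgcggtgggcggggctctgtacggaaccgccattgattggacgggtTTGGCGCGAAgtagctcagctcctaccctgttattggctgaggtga
Ltf: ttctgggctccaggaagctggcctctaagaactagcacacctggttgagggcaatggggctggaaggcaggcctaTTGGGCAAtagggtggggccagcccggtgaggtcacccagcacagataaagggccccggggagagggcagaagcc

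The Hmmr and Top2a windows each hold 4 CCAAT boxes, and that of Mki67 holds 1 with 2 CHR motifs. In the 250 bases before the start, on both strands, CCAAT was found in 22 of the 29 promoters listed for mitotic members that fell (75.9%), and at least 2 copies in 14 (48.3%). Among all 22862 promoters of genes with a single entry the shares were 34.7% and 10.7%. CHR was found in 9 of the 29 (31.0%), against 16.7% of all promoters. The E2F motif was found in 15 of the 23 promoters of replication members that fell (65.2%), against 17.0% of all promoters, and CCAAT in 16 of them (69.6%). A match describes these letters and no binding.

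Most genes of DNA replication and nucleotide synthesis fell too. Of 43 genes tested, 34 fell (79.1%, against 10.8% of all genes lower), none rose, and the median difference was -0.94. The list mean was 0.09, -0.59, -0.06 and -0.25 at 14 days, against 0.67, 0.69, 0.80 and 0.67 at 7 days, so all 14-day arrays lay below all 7-day arrays. Orc1, the ATPase subunit of the origin recognition complex, had log2 ratios of 0.47, -1.05, 0.30 and -0.44 at 14 days, against 1.44, 1.82, 1.78 and 1.56 at 7 days, a fall of 1.83 ± 0.37 (adjusted p = 0.000565). Cdc45, part of the active helicase at the fork, had -0.86, -2.16, -1.37 and -1.25 at 14 days, against 0.48, 0.21, 0.14 and 0.08 at 7 days, a fall of 1.64 ± 0.27 (adjusted p = 7.8e-05). Neither gene overlapped between the groups.

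The helicase subunits Mcm2 to Mcm7 fell, from -0.71 for Mcm3 to -1.42 ± 0.28 for Mcm6. The calls of Mcm2 and Mcm3 ended without 14-day replicate 2 or 7-day replicate 3, and that of Mcm2 also without 14-day replicate 4 (adjusted p up to 0.149). Further falls were seen in the primase genes Prim1 (-1.24) and Prim2 (-1.53), in Pcna (-1.03), the sliding clamp, and in Ccne2 (-1.64), a cyclin of S phase entry. Tk1 (-1.53), Rrm1 (-1.27) and Tyms (-1.01), which supply deoxynucleotides, fell as well. Among the members that did not pass were E2f1 (-0.58), Ccne1 (-0.22), Cdt1 (-0.37) and Pold1 (0.08). Atad5, which unloads the sliding clamp and was not in the list, fell by 1.99 ± 0.30.

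Of 15 replication-dependent histone genes and their mRNA-binding factor Slbp, 9 fell (60.0%, against 10.8% of all genes lower) and none rose. The median was -0.94. H2ac4 fell most, by 1.99 ± 0.36, followed by H4c2 with 1.51 ± 0.34, and H2ac12, outside the list, fell by 1.89 ± 0.32. H2bc3 (-1.45 ± 0.46, adjusted p = 0.0196) lost its call without 14-day replicate 2 (adjusted p = 0.0886) or without 7-day replicate 3 (adjusted p = 0.053). Histone genes are near-identical copies that lie in clusters, so a probe may read more than 1 of them. Against untreated, none of either list passed the test at 14 days (5 and 3 at unadjusted p below 0.05). At 7 days 36 of the 43 replication genes and 12 of the 15 histone genes rose against untreated (8.68% of all genes tested). Without both 14-day arrays with many missing values the falls numbered 4 of 43 and 2 of 15, and without 14-day replicate 2 they numbered 29 and 7.

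**Figure D3:**
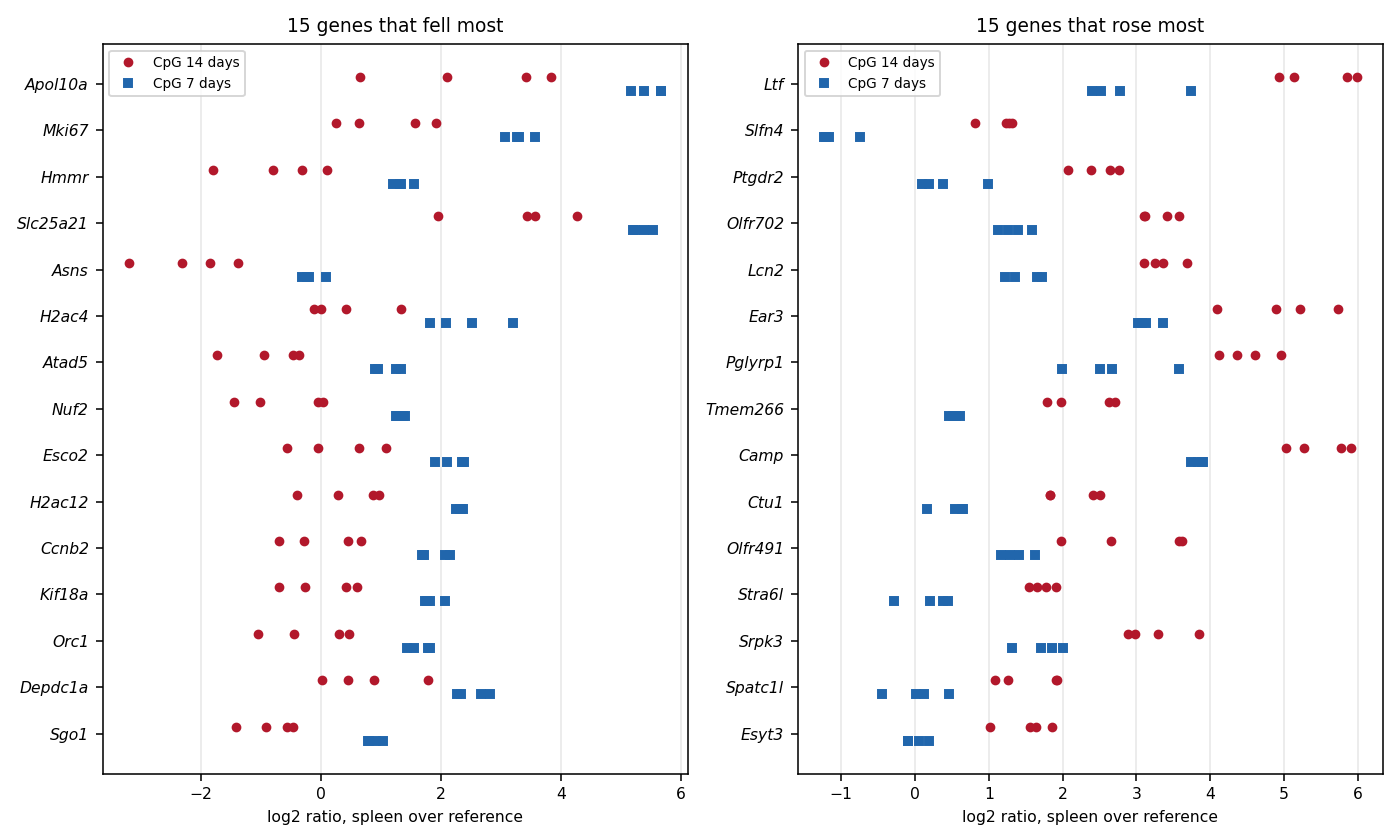
Log2 ratio, spleen over reference, on each of the 4 arrays at 14 days (red circles) and at 7 days (blue squares) for the 15 genes that fell most (left) and the 15 that rose most (right) among called genes whose groups do not overlap. In Apol10a the 14-day arrays run from 0.66 to 3.83, below all 7-day arrays, and in Ltf from 4.93 to 5.99, above all 7-day arrays.

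Genes that fell most outside the cell cycle included Apol10a, a member of the apolipoprotein L family. Its log2 ratios were 3.83, 0.66, 3.41 and 2.10 at 14 days, against 5.18, 5.67, 5.39 and 5.68 at 7 days, the largest fall of the named genes at 2.98 ± 0.44 (7.87-fold, adjusted p = 2.86e-05). It remained above untreated spleen at 14 days, by 1.34 (adjusted p = 0.0477), and had been 4.31 above it at 7 days. Asns, which makes asparagine, had -1.39, -3.20, -1.84 and -2.31 at 14 days, against -0.32, -0.24, -0.20 and 0.09 at 7 days, a fall of 2.02 ± 0.30 (adjusted p = 3.19e-05). Slc25a21, a mitochondrial carrier of oxodicarboxylates, fell by 2.03 ± 0.41. On all 3 genes the 14-day array of replicate 2 was the lowest.

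Haem synthesis genes fell, and globin genes did not pass the test. Of 16 genes of haem synthesis and erythroid iron uptake, 9 fell (56.25%, against 10.8% of all genes lower) and none rose. The median was -0.79. The list mean was 1.80, 1.35, 1.85 and 1.75 at 14 days, against 2.22, 2.37, 2.39 and 2.20 at 7 days, with no overlap. Tfrc, the transferrin receptor through which erythroblasts take up iron, had log2 ratios of 2.52, 1.43, 2.63 and 2.36 at 14 days, against 3.86, 4.08, 3.86 and 3.59 at 7 days, a fall of 1.61 ± 0.37 (adjusted p = 0.0021). Dividing cells of other kinds also carry the transferrin receptor.

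Enzymes along the pathway fell: Alad fell by 0.98 ± 0.30, Uros by 1.09 ± 0.31, Urod by 0.96, Cpox by 1.00 ± 0.21 and Fech, which inserts the iron, by 1.02 ± 0.34, while Ppox (-0.52) did not pass the test. The mitochondrial transporters Abcb10 (-1.40 ± 0.34) and Slc25a38 (-0.61), which brings in glycine, and Abcb6 (-0.90), a porphyrin transporter, fell as well. The call of Uros ended without 14-day replicate 2 (adjusted p = 0.0628), as did those of Alad and Abcb6 (adjusted p = 0.0817 and 0.0736). Those of Urod, Slc25a38 and Fech ended without 14-day replicate 2 or 7-day replicate 2, 3 or 4, depending on the gene, and for Slc25a38 and Fech without 14-day replicate 4 as well (adjusted p up to 0.135). Of the 16 genes, 4 had a difference above 0, none of which passed, and Alas2, the erythroid enzyme of the committed step, was 1 of them. Its log2 ratios were 3.62, 4.14, 4.08 and 4.65 at 14 days, against 3.70, 3.08, 3.13 and 3.34 at 7 days. The groups overlapped, and the difference of 0.81 ± 0.40 did not pass (adjusted p = 0.146). The count of 9 became 3 without 14-day replicate 2, 2 without both acinar-rich 7-day arrays, and 0 without both 14-day arrays with many missing values.

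Of 23 erythroid membrane, globin and antioxidant genes, 6 fell (26.1%, against 10.8% of all genes) and none rose, with a median of -0.42. Prdx2, an abundant antioxidant enzyme of red cells, had 1.24, 0.43, 0.98 and 0.44 at 14 days, against 1.92, 2.31, 2.14 and 1.87 at 7 days, and fell by 1.29 ± 0.25 (adjusted p = 0.000494). Ank1 (-0.87), the ankyrin of the red cell membrane, Icam4 (-0.83) and Hemgn (-0.60) fell too. Kel (-1.05 ± 0.39, adjusted p = 0.049) and Aqp1 (-1.03 ± 0.32, adjusted p = 0.0198) fell, but Kel lost its call without 14-day replicates 1, 2 or 4 or 7-day replicates 2, 3 or 4 (adjusted p up to 0.122) and Aqp1 without 14-day replicate 2 (adjusted p = 0.117) or 7-day replicate 3 (adjusted p = 0.0654). The globin genes Hbb-b1 (0.34 ± 0.43), Hba-a1 (0.71 ± 0.33) and Hbb-b2 (0.77), near-identical to their neighbours, lay on the positive side without passing, as did Slc4a1, the band 3 anion exchanger (0.26). The calls of Ank1, Icam4 and Hemgn each ended without 1 or more of 14-day replicates 2 and 4 and 7-day replicates 2 and 4 (adjusted p up to 0.143). The count of 6 became 2 without 14-day replicate 2, 3 without 7-day replicate 2, 1 without both acinar-rich 7-day arrays, and 0 without both 14-day arrays with many missing values.

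Among 15 erythroid and megakaryocyte transcription factors, 3 fell (20.0%) and 1 rose (6.67%), against 10.8% of all genes in each direction. Tal1, a master factor of blood formation, fell by 1.18 ± 0.36 (adjusted p = 0.0167), Zfpm1, the partner of GATA1, by 0.86 ± 0.24, and Myb, which keeps progenitors dividing, by 0.56. All 3 calls ended without 14-day replicate 2 (adjusted p = 0.083 for Tal1, 0.0672 for Zfpm1 and 0.129 for Myb, whose call also ended without 7-day replicate 3 or 4), so the count of 3 became 0. It was 1 without both acinar-rich 7-day arrays and 0 without both 14-day arrays with many missing values. Fli1, a factor of megakaryocytes, lymphocytes and endothelium, rose by 0.94 ± 0.17 (adjusted p = 0.000215). Gata1 (-0.50 ± 0.22, adjusted p = 0.0979), Klf1 (-0.96 ± 0.42, adjusted p = 0.103) and Epor (-0.05 ± 0.33) did not pass. Of 18 megakaryocyte and platelet genes only F13a1 (5.56%), the A chain of clotting factor XIII, passed (-0.83 ± 0.29, adjusted p = 0.0325). Its call ended without 14-day replicate 1 or 2 or 7-day replicate 2 or 4 (adjusted p up to 0.126).

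**Figure D4:**
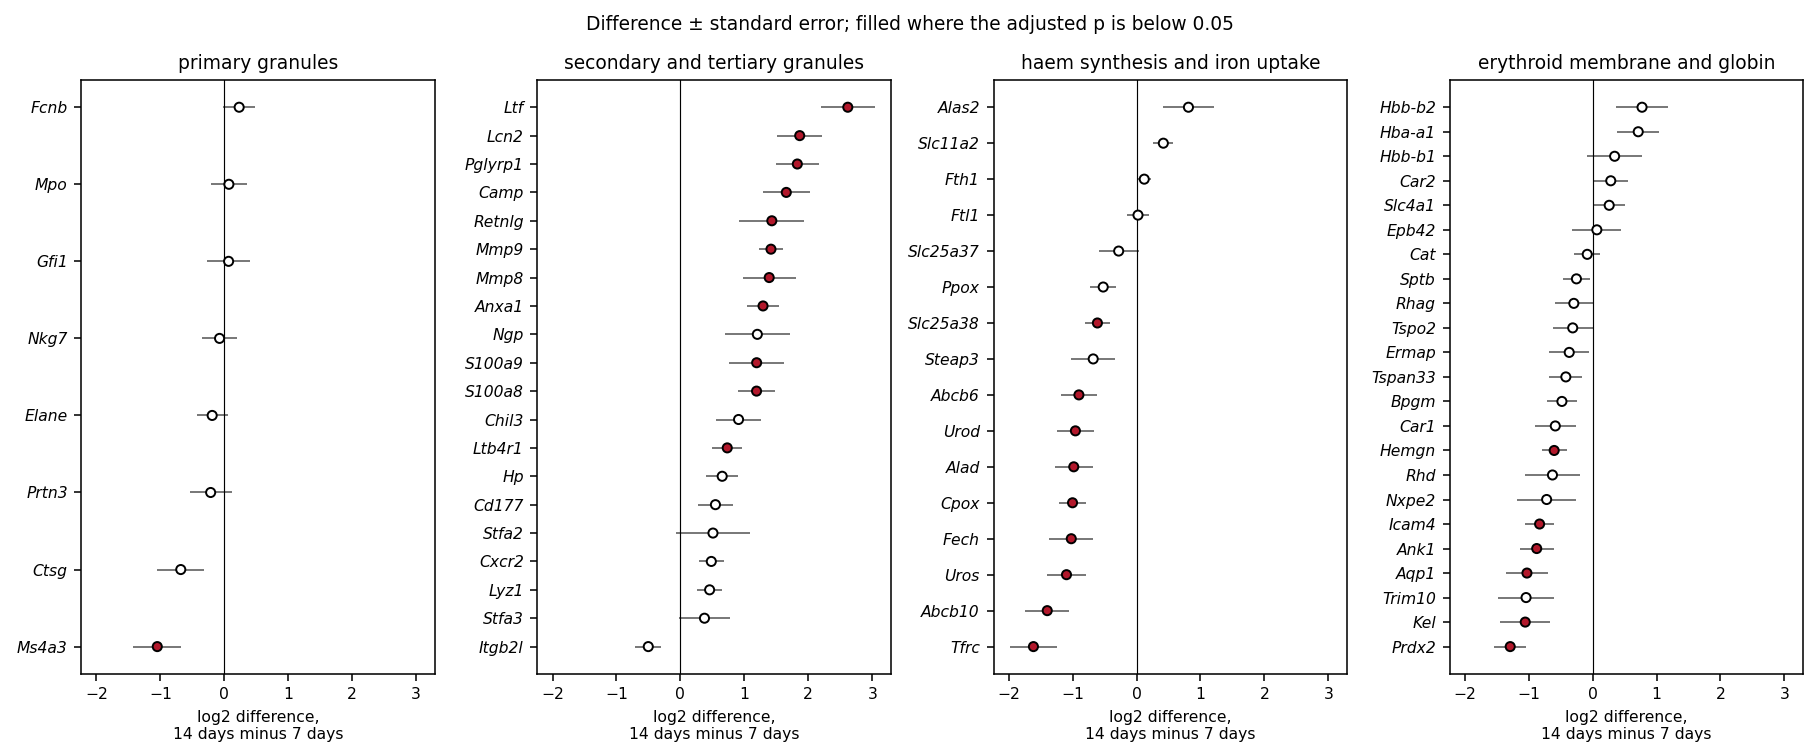
Log2 difference, 14 days minus 7 days, with its standard error for each tested gene of 4 lists: primary granules, secondary and tertiary granules, haem synthesis and iron uptake, and erythroid membrane and globin genes. Filled points passed an adjusted p below 0.05: 11 secondary and tertiary granule genes on the positive side, and 1, 9 and 6 genes of the other lists on the negative side.

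Neutrophil genes divided by granule type. Of 20 genes of secondary and tertiary granules and of late neutrophils, 11 rose (all genes higher: 10.8%), none fell, and the median was 1.19. Of 8 genes of primary granules and promyelocytes, none rose, 1 fell (12.5%, near the 10.8% of all genes lower), and the median was -0.13. The late-granule list had means of 3.21, 3.35, 3.57 and 3.26 at 14 days, against 2.09, 2.40, 2.23 and 2.34 at 7 days, and the groups were well apart.

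Ltf, encoding lactoferrin, the iron-binding protein of secondary granules, rose most of all named genes. Its log2 ratios were 5.86, 5.99, 5.14 and 4.93 at 14 days, against 2.40, 3.74, 2.78 and 2.53 at 7 days, a rise of 2.62 ± 0.42 (6.14-fold, adjusted p = 6.42e-05). Lcn2, the siderophore-binding lipocalin, had 3.25, 3.69, 3.37 and 3.10 at 14 days, against 1.65, 1.73, 1.22 and 1.35 at 7 days, and rose by 1.87 ± 0.36 (adjusted p = 0.000337). Camp, the cathelicidin precursor, had 5.27, 5.91, 5.78 and 5.04 at 14 days, against 3.84, 3.89, 3.74 and 3.90 at 7 days, and rose by 1.66 ± 0.37 (adjusted p = 0.00143). All 3 were separate between the groups, and their calls held with each of the 8 arrays left out.

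Pglyrp1, a peptidoglycan-binding protein, rose by 1.83 ± 0.33, and the granule metalloproteinases Mmp9 and Mmp8 by 1.42 ± 0.19 and 1.39. The calprotectin subunits S100a8 (1.19 ± 0.29) and S100a9 (1.19 ± 0.43), the resistin-like Retnlg (1.43), Anxa1 (1.29) and the leukotriene B4 receptor Ltb4r1 (0.73) also rose. The call of Retnlg ended when any of the 8 arrays was left out, that of S100a9 without any but 14-day replicates 1 and 3, that of Ltb4r1 without 14-day replicates 2, 3 or 4 or 7-day replicates 1 or 4, and that of Mmp8 without 14-day replicate 3 or 7-day replicate 1 (adjusted p up to 0.145). Without 7-day replicate 1 the count of 11 became 7. Ngp, whose groups did not overlap, missed the threshold (1.20 ± 0.51, adjusted p = 0.0861), as did Chil3 (0.91 ± 0.35, adjusted p = 0.0601), which passed only without 14-day replicate 1 (1.34, adjusted p = 0.00423). Itgb2l was the sole member below 0 (-0.50). The window of the Ltf promoter printed above holds 1 match to the C/EBP motif, a family that drives late granule genes. That motif was found in 7 of the 10 promoters listed for members that rose (70.0%), and in 37.3% of all promoters. It was as frequent in small sets of other lists, with 6 of 8 for histone members that fell (75.0%), 5 of 8 for B cell members that rose (62.5%) and 3 of 5 for haem synthesis members that fell (60.0%).

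Most primary granule genes were above untreated spleen at both times. Mpo, encoding myeloperoxidase, had 4.21, 4.35, 4.39 and 3.81 at 14 days, against 3.74, 4.29, 4.41 and 4.04 at 7 days, and its 3 features did not all differ in the same direction. Elane, encoding neutrophil elastase, had 2.92, 2.41, 3.19 and 2.54 at 14 days, against 2.91, 2.98, 2.78 and 3.14 at 7 days. The groups overlapped for both genes, with differences of 0.07 ± 0.28 and -0.19 ± 0.24. Against untreated, 6 of the 8 primary genes rose at 14 days (2.77% of all genes tested) with a median of 1.77. At 7 days 6 rose against untreated (8.68% of all genes tested) with a median of 2.11. Of the late-granule genes 12 of 20 rose against untreated at 14 days with a median of 1.16. At 7 days 7 of them rose, 3 fell (6.89% of all genes tested) and the median was 0.23. Ms4a3, a marker of granulocyte and monocyte progenitors, was the primary-list gene that fell (-1.05 ± 0.38, adjusted p = 0.0413), and its call ended when any array but 14-day replicate 3 was left out (adjusted p up to 0.143). Without both 14-day arrays with many missing values 7 late-granule genes still rose.

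Eosinophil granule genes and the basophil protease gene differed in direction. Epx, encoding eosinophil peroxidase, had 4.96, 2.93, 4.14 and 4.64 at 14 days, against 2.20, 2.77, 3.05 and 2.60 at 7 days. Replicate 2 overlapped with the 7-day arrays, and Epx rose by 1.51 ± 0.43 (adjusted p = 0.0111). Prg2, the eosinophil major basic protein, rose by 1.59 ± 0.48 (adjusted p = 0.0164), but not without 14-day replicate 4 (1.23, adjusted p = 0.0892). Ear6 (1.23 ± 0.32) and, outside the list, Ear3 (1.83 ± 0.32), ribonucleases of eosinophils from a family of near-identical copies, rose too. Mcpt8, the protease that marks mouse basophils, had 1.73, 2.11, 2.25 and 1.71 at 14 days, against 3.14, 3.26, 3.29 and 3.70 at 7 days, and fell by 1.39 ± 0.28 (adjusted p = 0.000623). The mast cell genes Cpa3 (-0.43) and Mcpt4 (-0.60) did not pass. Against untreated spleen Epx was higher by 3.20 at 14 days and by 1.69 at 7 days, and Mcpt8 by 1.05 at 14 days and by 2.44 at 7 days.

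Other leading rises were of varied function. Slfn4, a schlafen gene of myeloid cells, had 0.81, 1.28, 1.31 and 1.24 at 14 days, against -1.23, -0.75, -1.17 and -1.21 at 7 days, a rise of 2.25 ± 0.34 (adjusted p = 3.19e-05). It was 1.24 above untreated at 14 days (adjusted p = 0.0173) and below untreated at 7 days by a log2 difference of -1.01 (adjusted p = 0.0216). Ptgdr2, the prostaglandin D2 receptor of eosinophils, basophils and type 2 T cells, had 2.39, 2.77, 2.08 and 2.64 at 14 days, against 0.09, 0.99, 0.38 and 0.18 at 7 days, and rose by 2.06 ± 0.30 (adjusted p = 2.18e-05). Ptgdr2 was above untreated at 14 days (1.15) and below it at 7 days (-0.91), so both genes lay on opposite sides of untreated spleen at the different times. Tmem266 (1.74 ± 0.21), the tRNA-thiolating enzyme Ctu1 (1.65 ± 0.26), Stra6l (1.53 ± 0.17), the kinase gene Srpk3 (1.53 ± 0.26), Spatc1l (1.51 ± 0.26) and the membrane-tethering Esyt3 (1.51 ± 0.24) rose with groups that did not overlap. Srpk3, Spatc1l and Esyt3 were below untreated at 7 days and did not pass against it at 14 days.

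Lymphocyte genes rose at 14 days. Of 20 mature B cell markers, 12 rose (60.0%, against 10.8% of all genes higher) and none fell, with a median of 0.73. Of 21 T cell markers 11 rose (52.4%) and none fell, with a median of 0.60. The B cell list had means of 3.21, 3.87, 3.57 and 3.89 at 14 days, against 2.57, 2.91, 3.00 and 2.75 at 7 days. The T cell list had means of 1.44, 1.82, 1.64 and 1.68 at 14 days, against 1.04, 1.10, 1.16 and 1.03 at 7 days. Neither list mean overlapped between the groups, and replicate 1 was the lowest 14-day array in both.

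Tnfrsf13c, the BAFF receptor on which mature B cells depend, had 4.18, 5.70, 3.64 and 4.90 at 14 days, against 2.88, 3.71, 3.29 and 2.68 at 7 days, and rose by 1.46 ± 0.36 (adjusted p = 0.00381) with overlap at 1 array. Ms4a1, encoding CD20, had 2.18, 2.64, 2.93 and 3.08 at 14 days, against 1.25, 1.82, 1.91 and 1.44 at 7 days, and rose by 1.10 ± 0.25 (adjusted p = 0.00203). The factors Pax5 (0.72), Ebf1 (0.58) and Pou2af1 (0.97) and the antigen receptor component Cd79b (1.12 ± 0.16) rose, while its partner Cd79a (0.59 ± 0.34, adjusted p = 0.219) and Ighm (0.95) and Ighd (0.34) did not pass. Spib rose by 1.33 ± 0.37 and Bank1 by 1.15 ± 0.40. Spib and Ebf1 lost their calls without 14-day replicate 4 (adjusted p = 0.0536 and 0.0654), and Bank1 lost it without 14-day replicates 2, 3 or 4 or 7-day replicates 1 or 2 (adjusted p up to 0.154).

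Cd3e, part of the T cell receptor complex, had 0.61, 1.50, 0.92 and 0.92 at 14 days, against 0.06, 0.03, 0.18 and 0.01 at 7 days. The groups were separate, and it rose by 0.92 ± 0.19 (adjusted p = 0.000623). Cd4 (0.91 ± 0.26), Cd8b1 (0.68), Cd28 (0.72), Lat (0.90) and the interleukin 7 receptor gene Il7r (1.09 ± 0.31) rose also, while Cd8a (-0.09) and Thy1 (0.26) did not pass. Ccr7, the homing receptor for T cell zones, rose by 1.19 ± 0.31, a call that ended without 14-day replicate 2 (0.85, adjusted p = 0.0589). So did those of Lat (adjusted p = 0.0715) and Cd8b1, which was also lost without 14-day replicate 4 (adjusted p up to 0.0505). Against untreated, no B cell or T cell marker passed at 14 days (5 and 2 at unadjusted p below 0.05). At 7 days 8 of 20 B cell and 8 of 21 T cell markers fell against untreated (6.89% of all genes tested). Without both 14-day arrays with many missing values 1 gene of each list rose, without 14-day replicate 4 there were 7 B cell and 8 T cell genes, and without 14-day replicate 2 there were 9 and 7.

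Genes around the B cell line and antigen presentation were mixed. Of 12 genes of MHC class II presentation, 2 rose (16.7%, against 10.8% of all genes), with a median of 0.55. These were H2-Aa (0.77 ± 0.25, adjusted p = 0.0239) and Ifi30 (0.82 ± 0.24, adjusted p = 0.0141). Both lost their call without 14-day replicate 2 (adjusted p = 0.113 and 0.0984) and without 7-day replicate 4 (adjusted p = 0.107 and 0.0635), and H2-Aa also without 14-day replicate 4 (adjusted p = 0.0687). Of 7 B cell precursor genes, 3 rose (42.9%) and 1 fell (14.3%), against 10.8% of all genes in each direction. Vpreb3 (0.77 ± 0.16), Lef1 (0.77) and Il7r rose, the last pair also T cell genes. Vpreb1 (-0.53), the surrogate light chain gene of pre-B cells, fell, but not without 14-day replicate 4 or 7-day replicate 4 (adjusted p up to 0.063). Of 17 plasma cell and secretory genes, 3 rose (17.6%) and 1 fell (5.88%). Jchain (0.71 ± 0.19), which joins polymeric antibodies, Irf4 (0.73 ± 0.23) and Igha (0.83 ± 0.30) rose and the elongation factor Ell2 fell by 0.71 ± 0.18. The call of Igha ended when any array but 14-day replicate 2 was left out (adjusted p up to 0.15), and that of Irf4 without 14-day replicate 2 or 7-day replicates 1, 2 or 4 (adjusted p up to 0.0729).

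Most interferon-stimulated genes did not pass the test. Of 23 such genes 4 fell (17.4%, against 10.8% of all genes) and none rose, with a median of -0.12, and of 23 genes of interferon-gamma GTPases and antigen processing 4 fell (17.4%) and none rose, with a median of -0.10. Isg15, a ubiquitin-like protein, had 1.76, 0.98, 1.61 and 0.73 at 14 days, against 2.23, 2.44, 2.44 and 2.46 at 7 days, and fell by 1.12 ± 0.26 (adjusted p = 0.00249). Ifit1 fell by 0.72 ± 0.19, the RNA sensor Ifih1 by 0.67, and Cmpk2 by 0.76 ± 0.22. The calls of Cmpk2 (adjusted p = 0.0547) and Ifih1 ended without 14-day replicate 2, and that of Ifih1 also without 7-day replicate 3 (adjusted p up to 0.115). Of the GTPases that act on the vacuoles of intracellular microbes, Iigp1 (-1.06 ± 0.27), Igtp (-0.91 ± 0.22), Irgm1 (-0.92 ± 0.24) and Gbp3 (-0.55) fell. The call of Irgm1 ended without 14-day replicate 2 (adjusted p = 0.0504), and that of Gbp3 when any of the 8 arrays was left out (adjusted p up to 0.104). In both lists the count of 4 became 2 without 14-day replicate 2, 1 without both acinar-rich 7-day arrays and 0 without both 14-day arrays with many missing values. The antiviral genes Mx1 (0.09), Rsad2 (-0.25), Irf7 (0.25) and Oas2 (-0.08) and the chemokine genes Cxcl9 (-0.06) and Cxcl10 (0.06) did not pass. Against untreated, none of either list passed at 14 days (5 and 5 at unadjusted p below 0.05). At 7 days 9 of the interferon-stimulated genes and 7 of the second list rose against untreated (8.68% of all genes tested).

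The shares of macrophage and dendritic cell genes that passed the test were near or below those of all genes (10.8% in each direction). Of 21 monocyte and macrophage markers only Ms4a6d passed (4.76%). It fell by 0.86 ± 0.24, which did not hold without 14-day replicate 2 (adjusted p = 0.0598). Of 17 dendritic cell markers 2 rose (11.8%) and 1 fell (5.88%). The red pulp macrophage genes Vcam1 (-0.05 ± 0.25), Spic (-0.11) and Adgre1 (-0.60) did not pass. Clec9a, the dead-cell receptor of type 1 conventional dendritic cells, had 0.47, 0.13, 0.35 and -0.16 at 14 days, against 1.38, 1.36, 1.71 and 1.59 at 7 days, and fell by 1.31 ± 0.21 (adjusted p = 4.97e-05). Xcr1 (-0.30) and Batf3 (0.37), genes of the same cells, did not pass. Among other dendritic cell genes Itgax rose by 0.70 ± 0.23 and Tcf4 by 0.66 ± 0.20, calls that ended without 14-day replicate 2 (adjusted p = 0.0737 and 0.0577), for Itgax also without 14-day replicates 3 or 4 or 7-day replicates 1 or 4.

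C3ar1, the receptor of the complement fragment C3a, was among the clearest falls: it had -0.38, -0.75, -0.52 and -0.70 at 14 days, against 1.30, 1.01, 1.06 and 0.97 at 7 days. It fell by 1.67 ± 0.30 (3.18-fold, adjusted p = 0.000195) and was also below untreated at 14 days (-1.78, adjusted p = 0.000119), whereas at 7 days it was near untreated (-0.10, adjusted p = 0.84). Of 15 iron recycling genes tested 2 rose (13.3%) and 1 fell (6.67%), against 10.8% of all genes in each direction. Hmox1, which opens haem in red pulp macrophages, rose by 0.91 ± 0.20 (adjusted p = 0.00122) and the iron exporter gene Slc40a1 by 0.77 ± 0.23 (adjusted p = 0.0153), while Blvrb, a reductase abundant in red cells, fell by 1.23 ± 0.29 (adjusted p = 0.00232). The call of Slc40a1 ended without 14-day replicate 4 or 7-day replicates 1 or 4 (adjusted p up to 0.0747).

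Of 24 cytokine and chemokine genes 3 rose, a share of 12.5% that is near the 10.8% of all genes. The 3 are chemokines that place cells within the spleen: Cxcl13 (1.15 ± 0.42), which draws B cells into follicles, Ccl21a (0.97 ± 0.33), which draws T cells, and Cxcl12 (0.59 ± 0.17). Each lost its call in part of the fits without 1 array: Cxcl13 when any of the 8 was left out (adjusted p up to 0.132), Ccl21a without 14-day replicates 2, 3 or 4 or 7-day replicates 1 or 4 (adjusted p up to 0.108) and Cxcl12 without 14-day replicate 4 (adjusted p = 0.0851). Tnf (0.56), Il1b (0.98) and Il6 (0.26) did not pass. Among 22 endothelial and spleen stromal genes Wt1 (0.62 ± 0.20) and Cxcl12 passed (9.09%). Among 28 collagen and matrix genes Bgn, encoding biglycan, passed (3.57%), with a rise of 0.93 ± 0.25 (adjusted p = 0.00733). Both shares were below that of all genes. The call of Wt1 ended without 14-day replicates 2, 3 or 4 or 7-day replicates 2 or 3 (adjusted p up to 0.0812).

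Metabolic and housekeeping lists held called genes in both directions. Of 27 genes of oxidative phosphorylation 5 fell (18.5%, against 10.8% of all genes) and none rose. None of the 27 had a difference above 0, the median was -0.32, and Cyc1, the haem-bearing cytochrome c1, fell most (-0.98 ± 0.21, adjusted p = 0.00126). The count of 5 became 3 without 14-day replicate 2 or 7-day replicate 1, 2 without both acinar-rich 7-day arrays and 1 without both 14-day arrays with many missing values. Of 37 ribosomal protein genes 3 fell (8.11%) and 2 rose (5.41%), both below the 10.8% of all genes, with a median of -0.02. Rplp0 fell most (-0.72 ± 0.14), and without 7-day replicate 4 the falls numbered 5. Srebf2, the factor that switches on cholesterol synthesis, rose by 0.80 ± 0.13 (adjusted p = 6.01e-05), but none of the other 14 genes of that list passed. Of 20 immediate early and heat shock genes 5 rose (25.0%, against 10.8% of all genes), among them Jun (1.16 ± 0.24) and Zfp36 (1.09 ± 0.19), which breaks down cytokine mRNA, and the chaperone gene Hsp90aa1 fell by 0.77 ± 0.16. The count of 5 became 2 without 14-day replicate 3 or 4 or 7-day replicate 4, 3 without 7-day replicate 1 or 2, 2 without both acinar-rich 7-day arrays and 1 without both 14-day arrays with many missing values. Nfil3 (0.76 ± 0.20), Arntl (0.63 ± 0.22) and Bhlhe40 (0.47 ± 0.17) rose among 16 clock genes (18.8%), and the labels used here give no hour of sampling. The call of Arntl ended without 14-day replicates 2 or 4 or 7-day replicates 1, 3 or 4 (adjusted p up to 0.148), and that of Bhlhe40 without 14-day replicates 2, 3 or 4 or 7-day replicates 1, 2 or 4 (adjusted p up to 0.141). The count of 3 was 1 without 14-day replicate 2 or 4 and 5 without 14-day replicate 1.

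The remaining lists held between 1 and 3 called members each. Their largest share in 1 direction was 20.0% (adipocyte genes that fell), against 10.8% of all genes. Of 19 NK and cytotoxic genes Gzmm rose by 0.50 ± 0.15 and Tbx21 fell by 0.56 ± 0.17, both not without 14-day replicate 4 (adjusted p = 0.0854 and 0.0664), Gzmm also not without 7-day replicate 4 (adjusted p = 0.0501) and Tbx21 not without 7-day replicate 1 (adjusted p = 0.0555). Of 16 stem and progenitor genes only Csf3r, the G-CSF receptor, passed (0.73 ± 0.24, adjusted p = 0.0288), and its call ended without 14-day replicates 2, 3 or 4 or 7-day replicates 1 or 3 (adjusted p up to 0.0807). The progenitor genes Kit (-0.09 ± 0.25) and Cd34 (0.32 ± 0.20), the platelet chemokine gene Pf4 (0.13 ± 0.30), the granzyme gene Gzmb (-0.30 ± 0.33), the macrophage gene Cd5l (-1.01 ± 0.48, adjusted p = 0.132) and the collagen gene Col1a1 (-0.20 ± 0.23) did not pass. Of 16 glycolysis genes Pfkm fell by 0.69 ± 0.20, and Aldoc (0.57 ± 0.19) and Hk2 (0.56 ± 0.21) rose. The call of Aldoc ended without 14-day replicates 1 or 2 or 7-day replicates 1 or 3 (adjusted p up to 0.0684), and that of Hk2 without any array but 14-day replicate 1 (adjusted p up to 0.147). Of 10 adipocyte genes Lpl rose by 0.69 ± 0.17 and Ucp1 fell by 0.60 ± 0.15, as did Pparg (-0.69 ± 0.25), the last losing its call without any array but 7-day replicate 4 (adjusted p up to 0.166). In the complement list Cd55 (0.49 ± 0.18), a complement inhibitor, rose, whereas C3ar1 fell as described above. The call of Cd55 ended without 14-day replicates 2, 3 or 4 or 7-day replicates 1, 3 or 4 (adjusted p up to 0.157).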

How the data were processed

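Spleen RNA was measured on 2-colour oligonucleotide arrays in a reference design, with spleen cDNA in Cy5 and universal mouse reference cDNA in Cy3, per the labels' protocols. The deposited values are log2 ratios. Base 2 and the direction, spleen over reference, were inferred from the values; normalization, spot filter and software: not given in the sources used here. Array medians lie near 0. Of 30601 features, 23485 had 1 symbol in the platform annotation, 179 several and 6937 none listed. Features of a gene were averaged (5163 of 15277 genes had more than 1), and no column of values was left without a sample (0).

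Groups were compared with limma 3.58.1 (R 4.3.3), fitting all 42 arrays at the same time, each group with its coefficient, followed by eBayes. Tests need 3 or more arrays with a value in both groups; calls are at a 2-sided Benjamini-Hochberg adjusted p below 0.05 over all genes tested. Differences carry the fit's standard error and means the SD. No depth exists for arrays, so their number limits the precision. The fit was tested on simulated data.

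The genes and the 34 lists were chosen with earlier results of these data known, and the lists were written from general knowledge. Named are the 15 highest and 15 lowest called genes with a value on all 8 arrays, no overlap between groups and features that all differ in 1 direction, passing over clone, predicted and RIKEN symbols; the called members of each list that differ most, at most 3; and a fixed panel, 125 genes in all. Other list members are given from the fit as examples. Promoter sequences and motif counts use RefSeq promoters on GRCm38.p6. Alternatives left out arrays, changed scaling, centring, spread, weights, thresholds, the arrays fitted, filters and the gene unit, or added the replicate number as a block. Those without the acinar-rich arrays or the arrays with over 500 missing features, and with the acinar mean as a covariate, were chosen after seeing the data. Same-numbered arrays of the 2 groups were checked for pairing, and the labels give no shared animal. Plots were made in python 3.11.15 (matplotlib 3.10.9).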

Additional observations from a re-analysis of the deposited data

Results flagged for a closer look

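In groups of 4 arrays, a level was singled out where 1 array lay far from the other arrays of its group by Dixon's ratio, a rule that chance meets in about 5% of groups. Of 318 groups of values examined, 14 were singled out, 6 at 14 days and 8 at 7 days. Values are log2 ratios, and the median is that of the other 3 arrays.

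At 14 days replicate 2 was low for Aqp1 (1.87, median 2.79), Hsp90aa1 (-0.75, median -0.10), Ifit3 (-0.85, median 0.36) and the mean of the eosinophil, basophil and mast cell list (2.19, median 2.58). Slfn4 was low on replicate 1 (0.81, median 1.28), and Atp5o, an ATP synthase subunit, on replicate 4 (-0.78, median -0.34).

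At 7 days Kel was low on replicate 1 (3.26, median 4.32), as was Isg15 (2.23, median 2.44). Slfn4 was high on replicate 2 (-0.75, median -1.21). On replicate 3, Irf4 (-0.65, median -1.37), Bgn (0.71, median 0.13) and the mean of the DNA replication list (0.80, median 0.67) were high. On replicate 4, Cmpk2 (3.22, median 3.67) and Spib (2.40, median 3.11) were low.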

How the results depend on the processing

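Of the 125 genes named by rule, no called gene changed direction under any alternative run on genes. Direction was not followed for the other list members or for single features. The count of 3221 genes called between 14 and 7 days ran from 1873 to 3236 with each of the 8 arrays left out in turn. It was 1551 at an adjusted p below 0.01, 513 with a log2 difference of at least 1 as well, 1916 without both acinar-rich 7-day arrays and 457 without both 14-day arrays with over 500 missing features. The block by replicate number gave 3741. Same-numbered arrays deviated from their group means with correlations of 0.000817, 0.339, 0.198 and -0.153. Of the 4 arrays at 14 days, 2 matched the 7-day array of their number best. With so few arrays these values cannot show whether the replicate numbers pair them. Quantile normalization gave 2970 calls, array weights 4131, the 8 arrays alone 3628, the 16 arrays with adjacent database numbers 2656 and single features 4624. Of the 669 named genes and list members tested, 217 were called, 143 at adjusted p below 0.01, 114 with a difference of at least 1, 55 without both 14-day arrays with many missing features, and 156 to 227 with 1 array left out. Of 125 named genes 107 were called, 70 of these with each array left out and 29 under all alternatives.

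Against untreated, the 14-day count of 681 ran from 202 to 762 with 1 array left out. It was 202, 291 and 380 without 14-day replicates 2, 3 and 4, and 313 and 425 without untreated replicates 1 and 2. It was 376 with the replicate block, 392 after quantile normalization and 1169 with array weights. The 7-day count of 2366 ran from 1617 to 2301 with 1 array left out, was 3778 with array weights and 2215 with the replicate block. Alternatives that leave out arrays hold fewer samples, and no signal over background was available to weigh single features.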

Other observations

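Genes of the olfactory, vomeronasal and taste receptor families, which sense odours, pheromones and flavours in the nose and tongue, were looked at after their values were seen, because 2 of them, Olfr702 and Olfr491, were among the 15 genes that rose most. Of 408 such genes tested, 61 rose (14.95%) and 13 fell (3.19%), against 10.8% of all genes in each direction, and their median difference was 0.17, against 0.03 over all genes. The mean of the family was 0.21, 0.22, 0.17 and 0.17 on the 14-day arrays, against -0.02, 0.08, -0.01 and 0.08 on the 7-day arrays. All 14-day arrays lay above all 7-day arrays, and the family averaged 0.19 ± 0.03 at 14 days and 0.03 ± 0.06 at 7 days (SD, n = 4 each), with 0.08 ± 0.07 in untreated spleens (SD, n = 6). Olfr702 had log2 ratios of 3.10, 3.11, 3.58 and 3.42 at 14 days, against 1.12, 1.26, 1.59 and 1.40 at 7 days, a rise of 1.96 ± 0.31 (adjusted p = 5.69e-05). Olfr491 rose by 1.59 ± 0.54 (adjusted p = 0.0323), and its call ended without 14-day replicates 2, 3 or 4 or 7-day replicates 1, 2 or 3 (adjusted p up to 0.102).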
